A study of Mus musculus with 2 samples.

Results

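Kcnj5, Cacna1d, Cacna1h, Atp2b3, Clcn2 and Cadm1 are the mouse orthologs of genes that carry mutations in human aldosterone-producing adenomas or in familial hyperaldosteronism. That fact, and no measured value, is the rule by which they were chosen. They make up 6 of the 43346 Ensembl genes in the tables, and each was found once, by symbol. Their levels were measured by sequencing polyadenylated RNA of the whole adrenal gland of 1 female adult C57BL/6J mouse, 10 weeks old, with no treatment, allele or transgene named in the labels. The labels give 2 libraries of this material as technical replicates of 1 biological sample, and the second was made in May 2015, after the published set. The 2 libraries form 1 group, so every difference below lies between libraries, whose date and handling cannot be told apart, and none between animals.

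Aldosterone is made in the zona glomerulosa, the outermost layer of the adrenal cortex. Potassium channels hold the membrane of these cells negative. Angiotensin II and extracellular potassium depolarise the membrane and open voltage-gated calcium channels, and calcium then acts through calmodulin-dependent kinases to raise transcription of Cyp11b2, the gene for aldosterone synthase. Mutations in the human tumours act at several points of this path: a potassium channel that loses its selectivity and lets sodium in, calcium channels that open too readily, a calcium pump with impaired export, and a chloride channel whose opening depolarises the cell. Cadm1 stands apart as an adhesion molecule whose mutations have been tied to cell contacts and gap junction communication. Other layers of the gland and the chromaffin cells of the medulla also use many of these channels. In RNA from a whole gland, fewer cells of a type and less RNA per cell cannot be told apart.

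The sequences below are those on which the members' function or their transcripts turn. They were read from the GENCODE M21 annotation of GRCm38 and are written 5′ to 3′ on the strand of the gene. The first is the stretch of Kcnj5 that codes for the selectivity filter, in or beside which the recurrent human mutations lie, at chr9:32322532-32322594 on the minus strand in exon 3 of 4. Capitals mark codons 151 to 153 of 419, which code for the glycine, tyrosine and glycine of the filter.
Kcnj5 filter: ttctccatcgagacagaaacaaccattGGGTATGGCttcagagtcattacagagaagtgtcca

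The next is an optional coding exon of Atp2b3, 154 bases at chrX:73559864-73560017 on the plus strand, exon 21 of 22 in ENSMUST00000114479. It is the only difference between this transcript and ENSMUST00000088429, and the shares of these 2 transcripts were exchanged between the libraries. The exon lies in the part of the gene coding for the C-terminal regulatory tail of the pump. With it the coding length is 3519 bases, and without it 3660 bases.
Atp2b3 optional exon: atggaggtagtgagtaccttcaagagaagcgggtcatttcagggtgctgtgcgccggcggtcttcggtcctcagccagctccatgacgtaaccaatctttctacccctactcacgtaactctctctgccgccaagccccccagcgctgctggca

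Cacna1d has a pair of alternative coding exons, each exon 8 of 47 and 104 bases long, of which a transcript uses only 1. The exon of ENSMUST00000112249 lies at chr14:30171956-30172059 and that of ENSMUST00000112250 at chr14:30171296-30171399, both on the minus strand and 556 bases apart. They differ at 22 of 104 positions, marked in capitals, and are 78.8% identical. Human adenoma mutations have been described in the alternative exons at this place.
Exon of ENSMUST00000112249: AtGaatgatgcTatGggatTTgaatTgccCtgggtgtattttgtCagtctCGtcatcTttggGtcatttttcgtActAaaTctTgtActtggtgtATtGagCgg
Exon of ENSMUST00000112250: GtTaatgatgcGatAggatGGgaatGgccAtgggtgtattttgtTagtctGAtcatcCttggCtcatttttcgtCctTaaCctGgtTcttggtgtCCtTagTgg

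Cadm1 has optional coding exons between the immunoglobulin-like domains and the membrane-spanning segment. They measure 84 bases (chr9:47818734-47818817) and 33 bases (chr9:47829377-47829409), both on the plus strand. ENSMUST00000114547, the main transcript in these libraries, carries the longer exon only, ENSMUST00000085909 carries both, and ENSMUST00000034581 carries neither.
Cadm1 exon of 84 bases: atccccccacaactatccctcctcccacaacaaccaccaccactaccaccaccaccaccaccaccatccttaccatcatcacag
Cadm1 exon of 33 bases: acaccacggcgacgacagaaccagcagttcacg

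The libraries differed widely from each other across the whole gland, which bears on each value that follows. Rounded expected counts summed to 28267651 in replicate 1 and 17376660 in replicate 2. Mitochondrial genes took 40.1% of them in replicate 1 against 10.6% in replicate 2. Without these genes and 15 nuclear copies of them, 13260900 counts remained in replicate 1 and 14716667 in replicate 2. TPM values, which are levels per transcript length that sum to the same total in each library, are therefore low for nuclear genes in replicate 1, and a second set of values, rescaled over nuclear genes, is given beside them for the 6 genes, for their main paralogs and for sums over lists. Nuclear genes held a TPM sum of 174936 in replicate 1 and 616382 in replicate 2, so a TPM that is higher in replicate 2 by no more than the ratio of these sums is not higher on the nuclear scale. Where only TPM is printed for a gene, the fold and its call come from counts and not from the TPM. Of 14358 genes tested with an exact binomial test on the 2 libraries' counts, 36.5% were called higher in replicate 2 and 27.7% lower, with calls made where the adjusted p lay below 0.05 and the fold was 2 or more. Scaled by total counts, 7767 were higher and 571 lower, and the median log2 ratio of all tested genes went from 0.10 to 1.24. The ratio between the libraries followed the GC content of the genes. After the trend with GC content was removed, 12.9% of 14317 genes were called higher and 11.9% lower. P-values and intervals of single genes cover counting error in these libraries only. Cyp11b2, which marks the zona glomerulosa, was present in each library at 2.89 and 256 TPM, and Cyp11b1 and Star, markers of steroid-making cortex, were among the abundant messages.

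The 6 genes spanned a wide range of levels, and their order was not the same in the 2 libraries. By mean TPM the order was Cacna1h, Clcn2, Cadm1, Atp2b3, Cacna1d and Kcnj5, which was also their order in replicate 2. In replicate 1 it was Cadm1, Atp2b3, Cacna1d, Cacna1h, Clcn2 and Kcnj5. The ranges of neighbours in the order by mean overlapped in every case except Cacna1d and Kcnj5. By that measure only the place of Kcnj5 at the bottom is separated from the gene next to it. The ranges include the shift of TPM between the libraries. Within each library Cacna1h stood above Clcn2, Cadm1 above Atp2b3 and Atp2b3 above Cacna1d. Of the neighbours only Clcn2 and Cadm1 changed order. A minimum of 1 TPM in each library, reached by 9106 genes in all, was reached by 3 of the 6: Cacna1d, Atp2b3 and Cadm1.

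**Figure D1:**
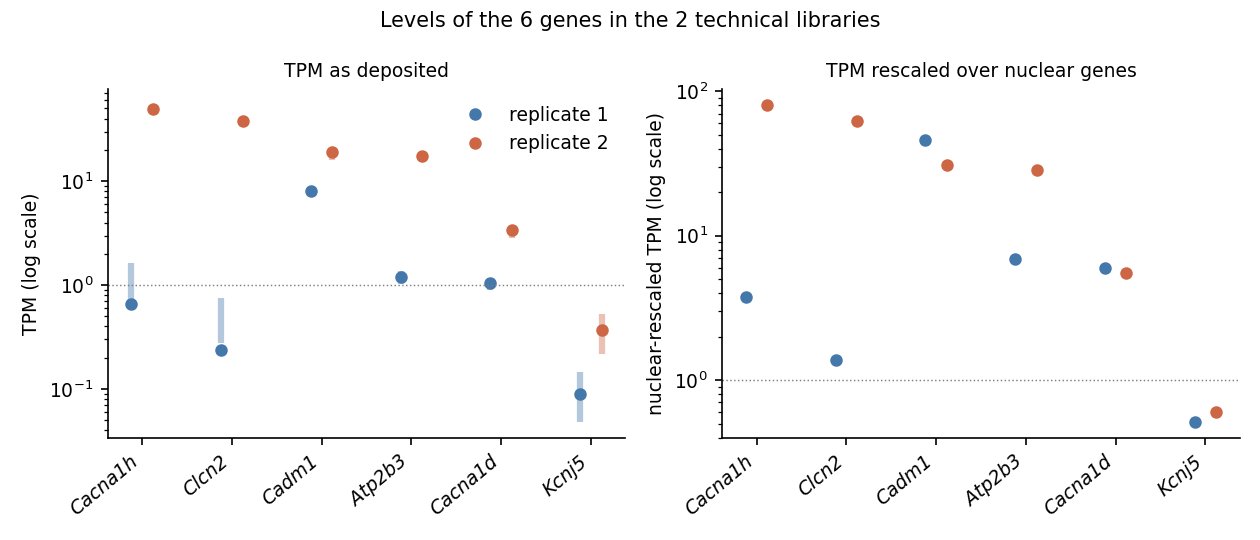
Level of each of the 6 genes in the 2 libraries, as deposited (left, TPM on a log scale, with the deposited interval as a pale bar) and rescaled over nuclear genes (right, log scale). The dotted line marks a TPM of 1, and Kcnj5 is lowest in both libraries on both scales, while Cacna1h and Clcn2 have the largest gaps between libraries.

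Kcnj5 codes for an inwardly rectifying potassium channel subunit that is opened by G proteins, and it is the gene most often mutated in human aldosterone-producing adenomas. It lies at chr9:32314707-32344350 on the minus strand of GRCm38. It had 13 counts in replicate 1 and 20 in replicate 2, or 0.09 and 0.37 TPM (mean 0.23 ± 0.198, SD, n = 2 technical libraries). The deposited intervals were 0.0486 to 0.146 TPM and 0.218 to 0.523 TPM and did not overlap. Rescaled over nuclear genes, the values lay close together at 0.51 and 0.60. The fold of replicate 2 to replicate 1 was 1.14 (exact 95% interval 0.539 to 2.49, adjusted p = 0.870 in the exact binomial test), so with TMM scaling no difference was detectable at this depth. Scaled by total counts of all genes, mitochondrial ones included, the log2 ratio was 1.28 (adjusted p = 0.017 in the exact binomial test) and Kcnj5 was called higher. Its GC content of 50.2% lay near the middle of the tested genes, and without the GC trend the log2 ratio was -0.10. The tables hold a single transcript of Kcnj5, so the shares of its transcripts carry no information, and the filter sequence printed above belongs to that transcript.

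Among the 15 inward rectifier genes, Kcnj5 was not the leading one. Kcnj8, a pore subunit of ATP-sensitive channels of vessel walls, had 0.84 and 7.86 TPM, and Kcnj2, which sets the resting potential in muscle, had 2.62 and 2.61 TPM. Kcnj12 stood at 0.07 and 2.90 TPM, and Kcnj2 was the only gene of the family with at least 1 TPM in both libraries. Kcnj3 and Kcnj6, whose products can join with that of Kcnj5 in G-protein-gated channels, were as sparse: Kcnj3 had 15 and 4 counts and Kcnj6 had 11 and 10. Kcnj9, the remaining member of that subgroup, had 0 and 5 counts. Of the 8 inward rectifier genes with enough counts to test, 3 were called higher in replicate 2 and 2 lower. Shares over all tested genes were 36.5% and 27.7%. With the GC trend removed none of the 8 was called in either direction, beside 12.9% and 11.9% of all tested genes. The median log2 ratio of the 8 was -0.18, against 0.10 over all tested genes. On the nuclear scale Kcnj8 had 4.80 and 12.8, Kcnj2 had 15.0 and 4.23, and the 15 genes summed to 26.6 and 27.5.

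Background potassium channels of the K2P family carry much of the resting conductance of glomerulosa cells in rodents. Kcnk3 had 36.8 and 595 TPM, Kcnk9 had 0.32 and 37.0 TPM, and Kcnk2 had 5.04 and 15.8 TPM. Kcnk1 had 1.24 and 2.20 TPM and Kcnk5 0.35 and 5.93 TPM. In each library Kcnk3 stood above all 6 genes, with 210 and 965 on the nuclear scale, while Kcnk9 in replicate 1 was below Kcnj2 and Kcnj8. Of 5 such genes, 3 were called higher in replicate 2 and 1 lower. Over all tested genes the shares were 36.5% and 27.7%, and 12.9% and 11.9% with the GC trend removed. With the GC trend removed, Kcnk9 was still called higher (log2 ratio 5.36), which rests on only 11 counts in replicate 1, against 471 in replicate 2. In the same fit Kcnk3 went from a log2 ratio of 2.17 to -2.07 and was called lower, as was Kcnk1. The direction for Kcnk3 thus depends on that correction.

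Cacna1d codes for the pore of an L-type calcium channel that opens at modest depolarisation. It lies at chr14:30039939-30491455 on the minus strand. It had 298 counts in replicate 1 and 372 in replicate 2, or 1.04 and 3.41 TPM (mean 2.23 ± 1.68, SD, n = 2). On the nuclear scale it had 5.95 and 5.53, the ratio nearest to 1 among the 6 genes. The fold was 0.924 (exact 95% interval 0.792 to 1.08, adjusted p = 0.352 in the exact binomial test). The log2 ratio was -0.11, and 0.08 with the GC trend removed, and at its GC content of 48.7% the trend of all genes was -0.19. By total counts of all genes, mitochondrial ones included, the same counts gave a log2 ratio of 1.02 and a call, so the lack of a call holds for TMM, DESeq2 size factors and totals of nuclear genes. The gene overlaps Dcp1a by 11921 bases and Chdh by 589 bases on the opposite strand, and whether the counting used strand is not given, so reads in the overlaps cannot be told apart.

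The transcripts of Cacna1d did not keep their shares. ENSMUST00000112250 held 70.1% of the gene in replicate 1 and 31.8% in replicate 2, and ENSMUST00000112249 held 29.9% and 68.2%. Expected counts behind these shares were 206 and 115 for the former, and 91.9 and 257 for the latter. The deposited interval for ENSMUST00000112250 in replicate 2 ran from 7.22e-05 to 1.83 TPM, so its level there was hardly bounded from below. The 2 transcripts carry the alternative exons printed above. Their GC contents in M21, 48.6% for ENSMUST00000112250 and 48.8% for ENSMUST00000112249, were alike. The exons themselves have 44.2% and 40.4% GC in the same order. The bearing of GC content on these shares was not tested. The 2 transcripts also differ elsewhere in M21, with coding lengths of 6498 bases for ENSMUST00000112250 and 6432 bases for ENSMUST00000112249. Their deposited lengths (8680 and 9054 bases) are not those of M21 (8688 and 8068 bases), so the shares cannot be assigned to the alternative exons alone. RefSeq start regions of Cacna1d in GRCm38.p6, 300 bases each, differ widely. The region at chr14:30491107-30491406 has 40.3% GC, and that at chr14:30353437-30353736 has 87.3%, more than 99.98% of all promoters in that table.

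Cacna1h codes for the pore of a T-type calcium channel, which opens at more negative potentials than L-type channels and whose human mutations cause a familial form of hyperaldosteronism. It lies at chr17:25374285-25433783 on the minus strand. It had 127 counts in replicate 1 and 4290 in replicate 2, or 0.66 and 49.6 TPM (mean 25.1 ± 34.6, SD, n = 2), and 3.77 and 80.5 on the nuclear scale. It stood below Cadm1, Atp2b3 and Cacna1d in replicate 1 and above all of the others in replicate 2. The fold was 25 (exact 95% interval 21 to 30.1), called higher in replicate 2. Its GC content, 60.3%, was above that of 96.7% of tested genes. The trend of all genes at that GC content was a log2 ratio of 4.74, and Cacna1h had 4.64. With the trend removed the log2 ratio was -0.10 and the fold 0.939 (exact 95% interval 0.787 to 1.13, adjusted p = 0.595), and the call was lost. The deposited interval in replicate 1, 0.687 to 1.64 TPM, lay above the deposited TPM of 0.66 itself.

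ENSMUST00000159610, a protein-coding transcript, held 97.5% of the counts of Cacna1h in replicate 1 and 99.0% in replicate 2. In terms of TPM it held 70.0% and 85.3%, since short transcripts weigh more per read. Its posterior mean share was 33.5% in replicate 1 and 77.9% in replicate 2, so its share in replicate 1 depends on which deposited estimate is read. ENSMUST00000159331, annotated as a retained intron and 412 bases long, held 23.9% of the gene's TPM in replicate 1 on 1.18 counts and 9.77% in replicate 2 on 13.5 counts. Retained-intron transcripts together held 30.0% and 14.7% of TPM on 3.18 and 43.4 counts. Cacna1h overlaps Tpsg1 by 158 bases, and Tpsg1 had 0 and 1 counts.

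Of the 10 genes for pore subunits of voltage-gated calcium channels, Cacna1h, Cacna1c and Cacna1d had the highest mean TPM. Cacna1c, the L-type channel of heart and smooth muscle, had 4.74 and 26.7 TPM and thus stood above Cacna1d in each library. The other T-type genes were sparse, with 1 and 20 counts for Cacna1g and 3 and 42 for Cacna1i. Of 9 tested genes, 5 were called higher in replicate 2 and none lower (36.5% and 27.7% of all tested genes). With the GC trend removed the counts became 0 higher and 3 lower (12.9% and 11.9% of all tested genes). The 3 were Cacna1a, Cacna1b and Cacna1c. The median log2 ratio of the 9 was 1.24, and -0.82 with the trend removed. Among the auxiliary subunits, Cacna2d1, which aids transport of the pore to the membrane, had 86.0 and 73.1 TPM, and Cacnb2, a cytoplasmic beta subunit, had 12.1 and 22.6 TPM. Cacnb3 followed at 0.06 and 9.03 TPM. On the nuclear scale Cacna1c had 27.1 and 43.4, Cacna2d1 had 492 and 119, and Cacnb2 had 69.1 and 36.7. Of 9 auxiliary genes tested, 4 were called higher and 2 lower, and 0 and 1 with the trend removed.

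**Figure D2:**
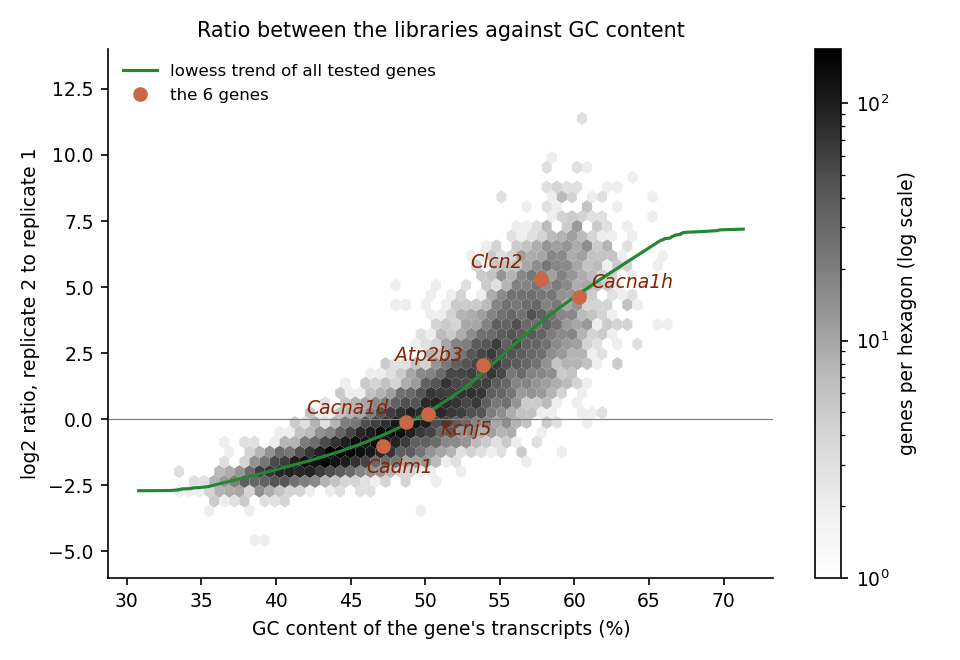
Log2 ratio of replicate 2 to replicate 1 against the GC content of each gene's transcripts in percent, for all tested genes with a GC value (grey hexagons, darker for more genes), with their lowess trend (green line) and the 6 genes (orange points). Cacna1h, Kcnj5 and Cacna1d lie on or near the line. Atp2b3 lies 0.31 above it, Cadm1 0.40 below it and Clcn2 1.62 above it.

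Atp2b3 codes for a plasma membrane pump that exports calcium with energy from ATP. It lies at chrX:73503086-73571005 on the plus strand. It had 173 counts in replicate 1 and 972 in replicate 2, or 1.21 and 17.6 TPM (mean 9.38 ± 11.6, SD, n = 2), and 6.92 and 28.5 on the nuclear scale. Replicate 2 was higher on each scale. The fold was 4.16 (exact 95% interval 3.54 to 4.92, adjusted p = 3.34e-88 in the exact binomial test), called higher. Its GC content was 53.8%, at which the trend of all genes was a log2 ratio of 1.75. With the trend removed the log2 ratio was 0.31 (fold 1.24, exact 95% interval 1.05 to 1.47, adjusted p = 0.015 in the exact binomial test), short of the fold minimum, and the call was lost.

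The exchange of Atp2b3 transcripts was the largest change in shares among the 6 genes. ENSMUST00000088429, without the 154-base exon, held 84.2% of the gene in replicate 1 and 6.48% in replicate 2. ENSMUST00000114479, with the exon, held 12.9% and 93.5%. In counts, the transcript without the exon had 145 and 60.9, and that with the exon had 23.1 and 911. The deposited intervals of the transcript without the exon, 0.364 to 1.17 TPM and 0.260 to 2.65 TPM, overlapped. Those of the transcript with the exon, 0.0213 to 0.724 TPM and 13.2 to 16.4 TPM, did not. The posterior mean shares gave the same order, with 27.0% and 90.4% for the transcript with the exon. The exon has 58.4% GC, while the 2 whole transcripts have 53.8% and 53.7%. Whether the exchange follows GC content was not tested.

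Atp2b3 stood in the middle of the genes for calcium export and storage. Atp2a2, the main pump of the endoplasmic reticulum, had 35.3 and 88.7 TPM, Atp2a1 had 2.44 and 80.9 TPM, and Atp2c1, a pump of the Golgi, had 22.1 and 33.8 TPM. Of the plasma membrane pumps, Atp2b1 had 9.83 and 12.9 TPM and Atp2b4 had 3.92 and 15.3 TPM. Atp2b1 and Atp2b4 were above Atp2b3 in replicate 1 and below it in replicate 2. Of 10 tested genes, 3 were called higher and 2 lower (36.5% and 27.7% of all tested genes). With the GC trend removed, the counts were 1 and 2 (12.9% and 11.9%). Rescaled over nuclear genes, Atp2b1 had 56.2 and 20.9, Atp2b4 had 22.4 and 24.9, Atp2a2 had 202 and 144, and the 10 genes summed to 435 and 421. Atp2a1 was called higher in both fits, with log2 ratios of 4.17 and 1.87.

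Clcn2 codes for a chloride channel that opens on hyperpolarisation, and gain-of-function mutations of its human ortholog cause a familial form of hyperaldosteronism. It lies at chr16:20702964-20717746 on the minus strand. It had 23 counts in replicate 1 and 1257 in replicate 2, or 0.24 and 38.3 TPM (mean 19.3 ± 26.9, SD, n = 2), and 1.37 and 62.1 on the nuclear scale. Among nuclear genes it ranked 12223 in replicate 1 and 3095 in replicate 2. The fold was 40.5 (exact 95% interval 26.8 to 64.1, adjusted p = 1.70e-261 in the exact binomial test), the largest of the 6. Its GC content was 57.8%, above that of 89.6% of tested genes, and the trend there was a log2 ratio of 3.69. With the trend removed the fold was 3.13 (exact 95% interval 2.08 to 4.96) and the call held, as it did for no other of the 6. Removing the trends with GC content and length together left a log2 ratio of 1.68. What else the difference may follow was not tested, and it rests on 23 counts in replicate 1.

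All 23 counts of Clcn2 in replicate 1 were assigned to ENSMUST00000007207, the protein-coding transcript of 24 exons. In replicate 2 this transcript held 73.7% of the gene on 1034 counts. Retained-intron transcripts held 25.4% there, with 16.6% in ENSMUST00000144400 alone (63.9 counts). The posterior mean share of ENSMUST00000007207 was 43.6% in replicate 1 and 70.1% in replicate 2, so the share of 100% in replicate 1 depends on which deposited estimate is read. Clcn2 overlaps Fam131a by 85 bases and Polr2h by 82 bases on the opposite strand. Fam131a had 4 and 181 counts and Polr2h 152 and 329.

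In the family of ClC genes, Clcn4 had 29.6 and 46.4 TPM and Clcn3, an exchanger of endosomes, had 25.9 and 30.4 TPM. Clcn2 was far below both in replicate 1, and between them in replicate 2. Clcn5 and Clcn7, which serve endosomes and lysosomes, had 8.23 and 16.4 TPM, and 2.59 and 20.1 TPM. Of 6 tested genes, 2 were called higher in replicate 2 and 3 lower (36.5% and 27.7% of all tested genes). With the GC trend removed 2 were called higher, Clcn2 and Clcn7, and none lower (12.9% and 11.9% of all). Clcn7 then had a log2 ratio of 1.00. Rescaled over nuclear genes, Clcn3 had 148 and 49.3, Clcn4 had 169 and 75.2, Clcn7 had 14.8 and 32.5, and the 9 genes of the family summed to 384 and 253. Whether opening of a chloride channel depolarises a cell depends on the transporters that load it with chloride. Slc12a2, the sodium-potassium-chloride importer, had 32.7 and 34.1 TPM, and the exporter Slc12a4 had 0.77 and 26.0 TPM. By counts Slc12a2 was called lower in replicate 2 (log2 ratio -1.78) and Slc12a4 higher (3.23). With the GC trend removed neither was called, with log2 ratios of -0.56 for Slc12a2 and -0.28 for Slc12a4. The direction for Slc12a4 thus depends on that correction. Of 7 tested genes in that list, 5 were called higher and 1 lower, and 0 and 1 with the trend removed.

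**Figure D3:**
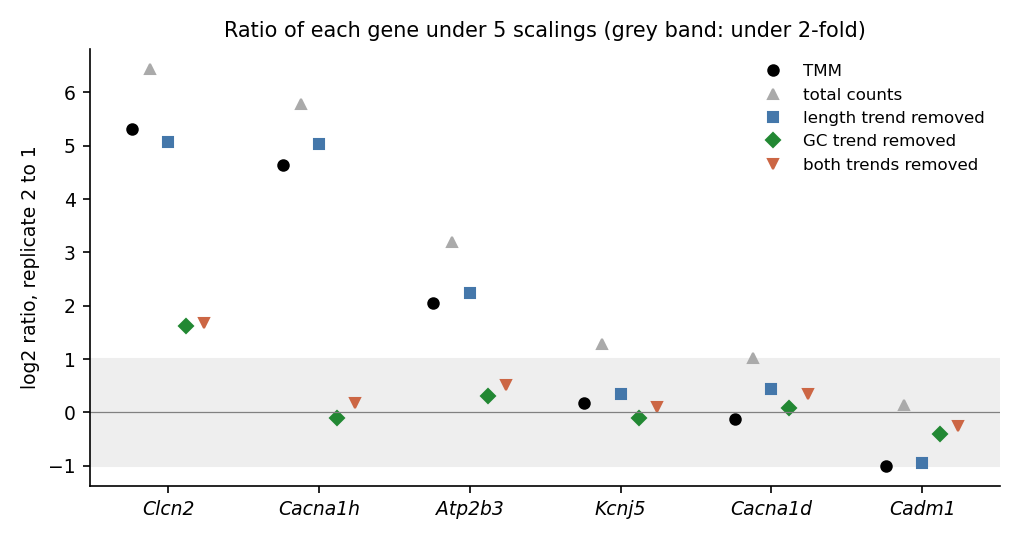
Log2 ratio of replicate 2 to replicate 1 for each of the 6 genes under 5 scalings: TMM (trimmed mean of M values, black), total counts (grey), and TMM after removal of the trend with length (blue), with GC content (green) or with both (orange). The grey band marks folds under 2. Clcn2 lies above the band under all 5, while Cacna1h and Atp2b3 fall inside it in both fits without the GC trend.

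Cadm1 codes for an adhesion molecule of the immunoglobulin superfamily. It lies at chr9:47530173-47857637 on the plus strand. It had 1129 counts in replicate 1 and 763 in replicate 2, or 8.01 and 18.9 TPM (mean 13.5 ± 7.70, SD, n = 2), and 45.8 and 30.7 on the nuclear scale. It was the highest of the 6 in replicate 1. Its TPM was higher in replicate 2 and its level on the nuclear scale lower there. The fold was 0.50 (exact 95% interval 0.456 to 0.549, adjusted p = 5.48e-50 in the exact binomial test), just short of the fold minimum, so that it was not called, and it was called lower with DESeq2 size factors (log2 ratio -1.06). Without the GC trend the log2 ratio was -0.40. That correction used 47.1% GC, a mean over all transcripts of the gene. The main transcript has only 43.6%, and with GC content weighted by the counts of the transcripts, 44.0%, the log2 ratio was 0.23. The direction for Cadm1 therefore depends on the scaling and on how its GC content is set.

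ENSMUST00000114547, with the 84-base exon and without the 33-base exon, held 99.6% of Cadm1 in replicate 1 and 65.9% in replicate 2. ENSMUST00000034581, with neither exon, held 0.42% and 14.8%, and ENSMUST00000085909, with both, held 0% and 9.51%. Counts for the main transcript were 1128 and 661, against 1.18 and 37.2 for ENSMUST00000034581. The main transcript has 43.6% GC and ENSMUST00000034581 has 53.0%, and the share of the transcript with more GC was larger in replicate 2 than in replicate 1, though smaller than that of the main transcript in both. The bearing of GC content on the shares was not tested. These transcripts also differ in length (4444 and 1254 bases), mostly at their 3′ ends.

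**Figure D4:**
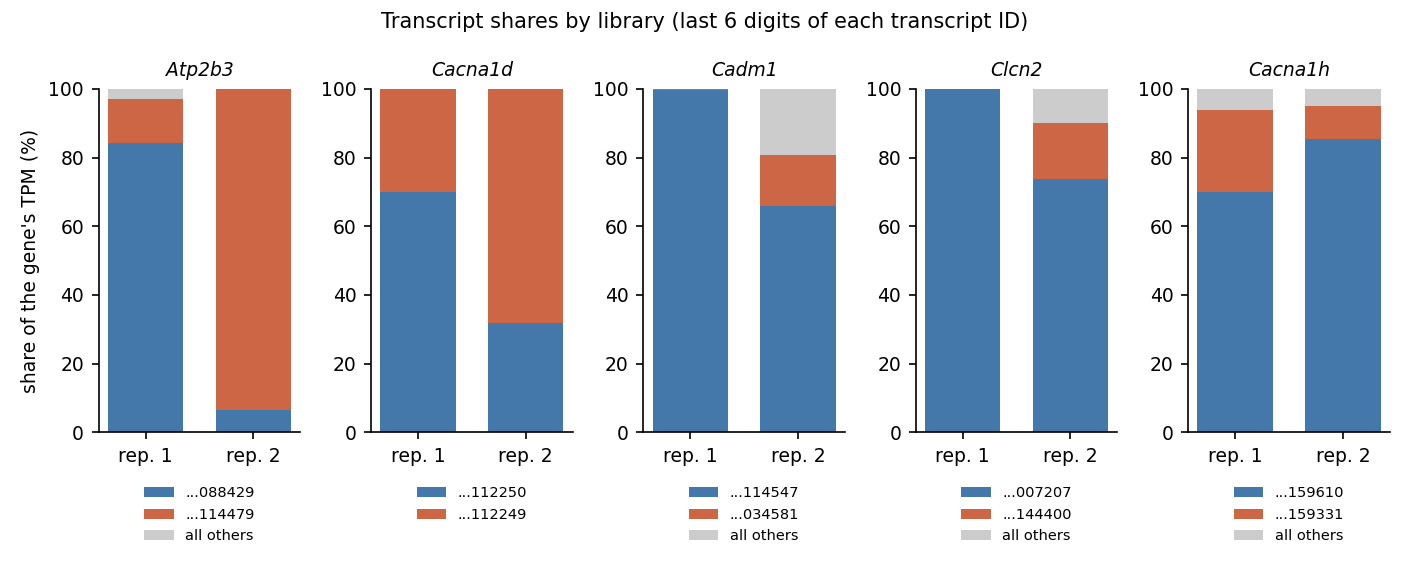
Share of each gene's TPM, in percent, that the deposited tables give to its transcripts in the 2 libraries, for the 5 genes with more than 1 transcript. Named are the transcripts with at least 10% in either library, and grey stands for all others. In Atp2b3 and Cacna1d the leading transcript is not the same in the 2 libraries.

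Cadm1 was the highest of the 4 Cadm genes in each library. Cadm4 had 0.05 and 3.58 TPM, Cadm3 had 0.21 and 1.76 TPM and Cadm2 had 0.07 and 0.45 TPM. Of the 4, 1 was called higher in replicate 2 (Cadm4) and 1 lower (Cadm2), and none with the GC trend removed. Of the gap junction genes listed with it, Gja1, the most widespread connexin, had 63.1 and 105 TPM, while Gjc1 had 2.57 and 7.03 TPM and Gjd2 1.48 and 3.13 TPM. On the nuclear scale Gja1 had 361 and 171, Cadm4 had 0.29 and 5.81, and the 4 Cadm genes summed to 47.7 and 40.1. Of 5 gap junction genes, 1 was called higher and 1 lower, and none with the trend removed. Shares over all tested genes were 36.5% and 27.7%, and 12.9% and 11.9% with the trend removed.

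**Figure D5:**
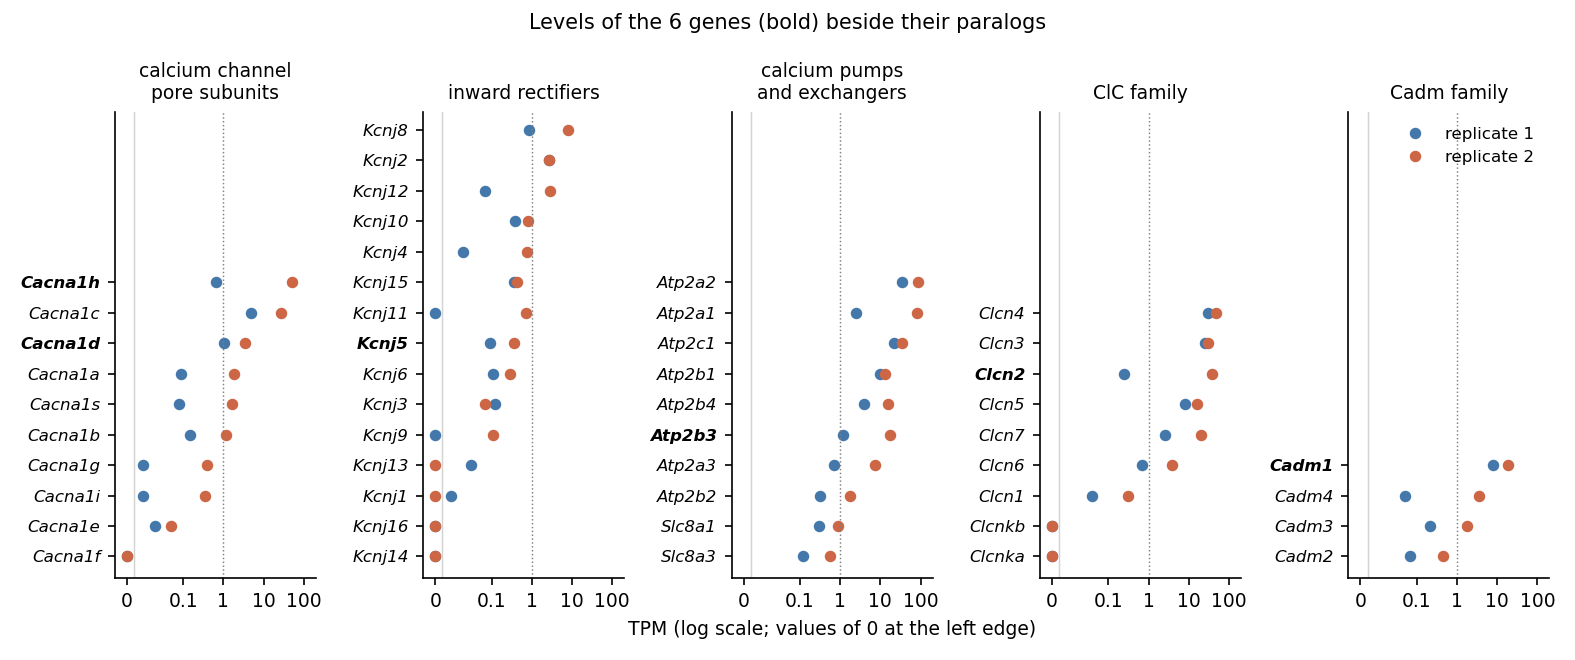
TPM on a log scale of the 6 genes (bold) and their paralogs in replicate 1 (blue) and replicate 2 (orange), with genes ordered by mean TPM in each family and values of 0 at the left edge. Cacna1h and Cadm1 have the highest mean in their families, and Kcnj5 lies below 1 TPM in both libraries.

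Other genes mutated or altered in human aldosterone-producing tumours or nodules were compared in the same fit. Ctnnb1, the Wnt effector beta-catenin, had 99.4 and 350.5 TPM, with a log2 ratio of -0.05. Gnaq and Gna11 code for near relatives among the G protein subunits that couple angiotensin receptors to calcium release. Gnaq had 15.1 and 25.9 TPM and was called lower (log2 ratio -1.09), and Gna11 had 0.85 and 53.8 TPM and was called higher (4.54, and 1.63 with the trend removed). Slc30a1, a zinc exporter, had 4.07 and 5.94 TPM (log2 ratio -1.30). Prkaca, the catalytic subunit of protein kinase A, had 9.73 and 131 TPM, Gnas, the stimulatory G protein subunit, had 295 and 1428 TPM, and Armc5 had 0.09 and 9.74 TPM. Of the 8 genes in that list 4 were called higher and 2 lower (36.5% and 27.7% of all tested genes). With the GC trend removed, 1 was called higher (Gna11) and 1 lower (Gnas, log2 ratio -3.25), beside 12.9% and 11.9%. Before that correction Gnas had a log2 ratio of 0.49 and no call. Its GC content of 57.9% is a mean over all its transcripts, so the direction for Gnas depends on that correction. The subunits of the sodium-potassium pump gave 4 higher and 2 lower of 7, and 1 and 1 with the trend removed. Among them were Atp1b3, at 92.3 and 122 TPM, and Atp1b1, at 28.3 and 42.4 TPM.

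The path from angiotensin II to Cyp11b2 was represented by 27 genes, all tested. Of them 9 were called higher in replicate 2 and 11 lower (36.5% and 27.7% of all tested genes). With the GC trend removed, 3 were called higher and 2 lower (12.9% and 11.9%). The 3 were Gna11, Camkk1 and Cyp11b2, and the 2 were Camk4 and Atf1. Star, which moves cholesterol into mitochondria, had 1952.5 and 5389.9 TPM, and Calm2, a calmodulin gene, had 384 and 567 TPM. On the nuclear scale Calm2 had 2194 and 920. It was called lower, and not called with the GC trend removed (log2 ratio 0.008). The receptor gene Agtr1a had 68.2 and 141 TPM, or 390 and 229 on the nuclear scale. Summed on that scale, the 27 genes had 15485 and 11869.9 (Star alone 11161 and 8744). Their median log2 ratio was -0.71, and -0.15 with the trend removed, against 0.10 and -0.03 over all tested genes.

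Over the 6 genes the median log2 ratio was 1.12, with 4 of 6 above 0, against 0.10 and 7476 of 14358 over all tested genes. With the GC trend removed it was -0.01, with 3 of 6 above 0. Of the 6, 3 were called higher and none lower beside 36.5% and 27.7% of all tested genes, and with the trend removed 1 was called higher and none lower beside 12.9% and 11.9%. These counts are too small to set the 6 apart from other genes.

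Marker genes of the cell types in the gland differed between the libraries as well. For the zona glomerulosa, 3 of 7 tested markers were called higher (Cyp11b2, Wnt4 and Kcnk9) and 3 lower (Dab2, Vsnl1 and Agtr1b), and their summed level was 196 and 647 TPM, or 1118 and 1050 on the nuclear scale, where the order of the libraries was the other way. With the GC trend removed, Cyp11b2 (log2 ratio 2.69) and Kcnk9 were called higher and none lower. Dab2 had 161 and 221 TPM, Vsnl1 18.3 and 24.3, Wnt4 1.49 and 71.3, Hsd3b6 6.03 and 29.3, Agtr1b 5.81 and 8.31, and Mcoln3 0 and 0.06. Summed levels of the zona fasciculata list were 2912 and 11630.4 TPM, and of the 11 chromaffin genes 901 and 6350 TPM, with Pnmt, the adrenaline-forming enzyme, at 0 and 357 TPM. Of the 11 chromaffin genes, 5 were called higher and 1 lower, and 3 and 4 with the trend removed. Endothelial genes summed to 97.0 and 397 TPM, smooth muscle and stromal genes to 109 and 346 TPM, and glial genes to 4.38 and 21.8 TPM. Macrophage genes summed to 4.87 and 184 TPM and adipocyte genes to 463 and 2412 TPM. On the nuclear scale the sums were 16645 and 18869 for the fasciculata, 5148 and 10302 for chromaffin, 554 and 644 for endothelial, 620 and 561 for smooth muscle and stromal, 25 and 35.3 for glial, 27.8 and 298 for macrophage and 2647 and 3914 for adipocyte genes. The sum for smooth muscle and stroma was thus lower in replicate 2 on that scale, and the sums of the other 6 were higher. Calls higher and lower were 2 and 1 of 5 fasciculata genes, 4 and 1 of 6 endothelial, 5 and 1 of 7 smooth muscle and stromal, 3 and 1 of 8 glial, 5 and 0 of 6 macrophage and 2 and 0 of 6 adipocyte genes. Without the trend they were 2 and 0 for the fasciculata, 0 and 0 for endothelium and 2 and 2 for glia. With the trend removed, 4 of 7 smooth muscle and stromal, 3 of 6 macrophage and 4 of 6 adipocyte genes were called higher and none lower. Over all tested genes the shares called higher and lower were 36.5% and 27.7%, and 12.9% and 11.9% with the trend removed. The part of cell makeup in the difference of Clcn2 or of any other of the 6 genes was not tested.

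The genes nearest to each of the 6 in level were sought by distance on the scale log2(nuclear-rescaled TPM + 0.1) over the 2 libraries. Kcnj5 lay nearest to Fjx1 (distance 0.14) and Trim9 (0.16), and Cacna1d to Helb (0.028) and Sox7 (0.034). Cacna1h lay close to Jmjd8 (0.065), and Atp2b3 to Fam53a (0.016) and Mapkapk3 (0.032). Clcn2 lay nearest to Commd9 (0.0083) and Itpk1 (0.039), and Cadm1 to Slfn5 (0.014) and Nsd1 (0.024). With only 2 libraries many genes lie close: within a distance of 0.5 there were 459 genes for Cadm1, 223 for Cacna1d, 202 for Atp2b3, 61 for Cacna1h, 50 for Kcnj5 and 45 for Clcn2, of 13485 protein-coding genes.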

How the data were processed

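Per library, 1 table of genes and 1 of transcripts were used. Their expected counts, deposited by the authors, are estimates of fragments and were rounded here. TPM and FPKM, per the file headers, are normalised by length and depth. Posterior means and interval bounds in the deposited tables were treated as a score, and transcript shares in the deposited tables are in percent. Per the deposited notes, the tables use mm10 and GENCODE M4. Aligner and counting program: not given in the sources used here. Sequences, coordinates and GC content came from GENCODE M21 (GRCm38), and start regions from RefSeq (GRCm38.p6, which listed 3 of the 6 genes).

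Genes whose counts summed to 20 or more were scaled with TMM (edgeR 4.0.16, R 4.3.3). An exact binomial test, two-sided and given the sum of both counts, was run for each gene (scipy 1.17.1), with Benjamini-Hochberg adjustment over all tested genes, as 2 libraries of 1 sample leave no residual degrees of freedom for a test with replicates. Intervals are exact (Clopper-Pearson) at 95%. Log2 ratios use a prior count of 0.5. The assumption of TMM, that few genes differ, is not met by these libraries. GC and length trends were lowess fits (fraction 0.3) over all tested genes. The GC content of a gene is a length-weighted mean over its transcripts. Nuclear rescaling left out 37 mitochondrial genes and 15 nuclear copies. Alternatives included DESeq2 1.42.0 size factors, other scalings, filters and deposited estimates. The comparison was tested on simulated counts in which few genes changed and the only spread was counting error. These libraries are not like that, so the simulation does not show how reliable the calls are here.

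The rule for the 6 genes uses no measured value, but the genes as a topic and 20 lists (169 genes) were chosen with earlier results of these data known. Named were the 6 genes, their transcripts with at least 10% of the gene, all other tumour and zona glomerulosa genes, mainly the 3 highest genes of other lists, paralogs above a member, and the 2 nearest genes in level. Other genes, such as those whose calls changed, were named after their values were seen. A few genes that this rule names are not reported here.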

Additional observations from a re-analysis of the deposited data

How the results depend on the processing

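The number of the 6 genes with at least 1 TPM in both libraries, 3 as reported, was 1 at a minimum of 5 TPM and 5 on the nuclear scale, and ran from 3 to 5 with each library alone. The order of levels kept 6 of 6 places in replicate 2 alone and 1 of 6 in replicate 1 alone, and 4 of 6 on the nuclear scale, an alternative chosen after seeing the data. Genes of the 6 called higher, 3 with TMM, were 5 with total-count scaling, and 1 each with the GC trend removed, with GC and length trends removed and with GC content weighted by counts (added after seeing the data). Genes called lower, 0 with TMM, were 1 with DESeq2 size factors and 1 without the fold minimum, Cadm1 each time. Of the listed genes other than these 6, 66 were called higher, which became 25 without the GC trend, 25 without both trends and 22 with weighted GC content. Those called lower, 34 with TMM, became 0 with total-count scaling, 19, 17 and 17 in the same 3 fits, and 55 without the fold minimum. Over all 14358 tested genes, 5236 higher and 3981 lower calls became 7767 and 571 with total-count scaling, and 5120 and 4166 with DESeq2 size factors. Without the fold minimum they became 6590 and 6002. They were 1844 and 1705 without the GC trend, 1608 and 1784 without the GC and length trends, and 1575 and 1538 with weighted GC content. Log2 ratios changed sign for Cacna1d with total-count scaling (1.02, a call gained), totals of nuclear genes (0.17), the GC trend removed (0.076), weighted GC content (0.024), the length trend removed (0.43) and both removed (0.34). They did so for Cacna1h with the GC trend removed (-0.10, a call lost) and weighted GC content (-0.033, a call lost), for Kcnj5 in the same 2 fits (-0.10 and -0.13, uncalled) and for Cadm1 with total-count scaling (0.14) and weighted GC content (0.23), both uncalled. Of 54 log2 ratios under alternatives, 36 kept direction and side of the threshold, 12 changed sign, 4 lost a call with the sign kept and 2 gained one. Depth limits Kcnj5 (13 and 20 counts) and Clcn2 in replicate 1 (23 counts). No paired analysis was possible because the libraries form 1 group.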
